A study of Mus musculus with 84 samples.

Results

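The neurotrophin genes described here are 7 of the 43629 genes counted in bulk RNA sequencing of mouse ventrolateral striatum. They comprise the ligands Bdnf and Ntf3, the Trk receptor genes Ntrk2 and Ntrk3, the low-affinity receptor gene Ngfr, the sorting receptor gene Sort1 and the tyrosine kinase gene Fyn. They were chosen by gene symbol, each matched to 1 row of the count table, and all 7 passed the filter on low counts, as did 17071 genes in all. Libraries came from 84 naive, untreated adults of the mouse strains SOT and NOT at generation S4, with 44 animals labelled High Drinker (21 females and 23 males) and 40 labelled Low Drinker (18 females and 22 males). The labels do not pair the strain names with the drinking groups and give no families, so animals were treated as independent, and p-values measure only the spread between these animals.

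Neurotrophins are secreted growth factors that are made as precursors and cut by proteases into mature ligands. Mature BDNF binds the receptor tyrosine kinase TrkB, encoded by Ntrk2, while NT-3, encoded by Ntf3, binds mainly TrkC, encoded by Ntrk3. The uncut precursors bind p75NTR, encoded by Ngfr, together with sortilin, encoded by Sort1, which also sorts BDNF inside the cell. In the striatum most BDNF protein is known to arrive along the axons of cortical neurons rather than to be made by the medium spiny neurons that receive it. Fyn is a kinase of the Src family that couples to TrkB and phosphorylates NMDA receptor subunits, and it is known in the rodent striatum for its activation by ethanol.

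Library totals lay between 22190363 and 41300401 counts, and the medians were 31877407 for High Drinker libraries and 30874656.5 for Low Drinker ones. The numbers that end the sample titles run in 3 sets of 48, 30 and 6 libraries, called sheet sets here. High Drinker libraries made up 30, 11 and 3 of them and Low Drinker libraries 18, 19 and 3. That a sheet set marks a shared preparation is an inference from the numbering. In an earlier analysis of these data, expression stood apart from the rest in 5 libraries, High Drinker 17 and Low Drinker 8, 32, 33 and 34, numbered by accession order within the group. Low Drinker 8 held the lowest Ntrk2 and Sort1 of all libraries, High Drinker 17 held the lowest Bdnf, and Low Drinker 32 held the lowest Ngfr and the highest Ntf3. Labelled sex matched the sex-linked transcripts in 84 of 84 libraries.

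In the deposited table, on build mm10, Bdnf spans chr2:109674700-109727007 on the plus strand and Ntf3 chr6:126101413-126166744 on the minus strand. Ntrk2 spans chr13:58806596-59133970 on the plus strand, Ntrk3 chr7:78192362-78578408 on the minus strand and Ngfr chr11:95568818-95587735 on the minus strand. Sort1 spans chr3:108284091-108361511 and Fyn chr10:39368855-39565381, both on the plus strand. All 7 are annotated as protein coding. A gene's count covers all its annotated exons, so the full-length and truncated TrkB forms, or the alternative Bdnf first exons, were counted together. Of the 7, Sort1 was the only gene with an exon overlapping that of another gene, the opposite-strand Gm12523, which held 0 to 5 counts per library.

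RefSeq promoter windows on GRCm38.p6, each 300 bases long, were found for 5 of the 7 genes and none was matched for Ntrk3 or Sort1. Bdnf had 7 windows because it is transcribed from several alternative start sites, and transcription from one of its promoters is known to be induced by neuronal activity through the factor CREB. The Bdnf window below, chr2:109692186-109692485 on the plus strand, is shown because it was the only window of these genes with the CREB-type element TCACGTCA, printed in capitals and starting 38 bases before the start site, at position -38. The Ntrk2 window, chr13:58806319-58806618 on the plus strand, is shown because Ntrk2 was the one gene past the threshold between the lines. The Ngfr window, chr11:95587649-95587948 on the minus strand, is shown because Ngfr ran opposite to Bdnf across the libraries. In these last windows capitals mark the GC box GGGCGG or its reverse complement CCGCCC.
Bdnf: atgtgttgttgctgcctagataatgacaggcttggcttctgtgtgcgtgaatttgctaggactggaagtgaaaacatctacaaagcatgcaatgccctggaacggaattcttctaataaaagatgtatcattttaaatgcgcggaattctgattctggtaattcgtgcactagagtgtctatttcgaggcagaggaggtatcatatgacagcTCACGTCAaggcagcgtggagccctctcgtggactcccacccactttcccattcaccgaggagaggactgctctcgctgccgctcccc
Ntrk2: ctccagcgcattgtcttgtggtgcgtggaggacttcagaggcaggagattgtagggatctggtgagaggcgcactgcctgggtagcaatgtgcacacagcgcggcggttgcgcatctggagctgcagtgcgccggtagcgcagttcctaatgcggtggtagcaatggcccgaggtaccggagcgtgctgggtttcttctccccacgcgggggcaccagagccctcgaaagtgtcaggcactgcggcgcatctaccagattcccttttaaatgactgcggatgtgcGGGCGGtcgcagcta
Ngfr: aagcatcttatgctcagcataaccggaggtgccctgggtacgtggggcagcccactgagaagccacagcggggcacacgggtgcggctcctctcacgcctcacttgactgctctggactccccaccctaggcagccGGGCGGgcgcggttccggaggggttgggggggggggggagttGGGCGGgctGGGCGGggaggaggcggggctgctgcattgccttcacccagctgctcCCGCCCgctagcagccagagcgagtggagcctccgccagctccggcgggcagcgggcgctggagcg
Searched on both strands, TCACGTCA occurred in 0.441% of 32851 RefSeq promoter windows, and the full palindrome TGACGTCA, which is in no window of these genes, in 1.79%. The E-box CACGTG was in 7.15% of all windows, and GGGCGG was in 35.7%. The windows differ in base composition, with a GC content of 48.7% in the Bdnf window, 61.3% in the Ntrk2 window and 71.7% in the Ngfr window, against a median of 52.7% over all windows. A match describes these letters only.

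To show how abundant each transcript was, CPM (counts scaled to library depth, here TMM-normalized) was divided by summed exon length. Over all 84 libraries Sort1 was highest at 72.6 ± 12.1 CPM per kb (SD), followed by Ntrk2 at 46 ± 6.99 and Fyn at 28.1 ± 1.66 CPM per kb. Ntrk3 averaged 10.2 ± 1.62 CPM per kb, Bdnf 3.29 ± 1.48, Ngfr 0.881 ± 1.19 and Ntf3 0.391 ± 0.192 CPM per kb. Sort1, Ntrk2, Fyn and Ntrk3 thus lay above both ligands in mean level and Ngfr lay between the ligands, and the intervals of mean ± SD overlapped between neighbours only for Bdnf with Ngfr and Ngfr with Ntf3. The single-library ranges of all neighbours but Fyn and Ntrk3 overlapped, for example 36.7 to 99.6 CPM per kb for Sort1 and 23.7 to 64.3 for Ntrk2. Fyn was the steadiest, with a coefficient of variation of 5.92%, against 15.2% for Ntrk2, 15.9% for Ntrk3, 16.6% for Sort1, 44.9% for Bdnf, 49.2% for Ntf3 and 135% for Ngfr. Ntf3 rests on 1 to 42 counts per library, which limits its precision.

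**Figure D1:**
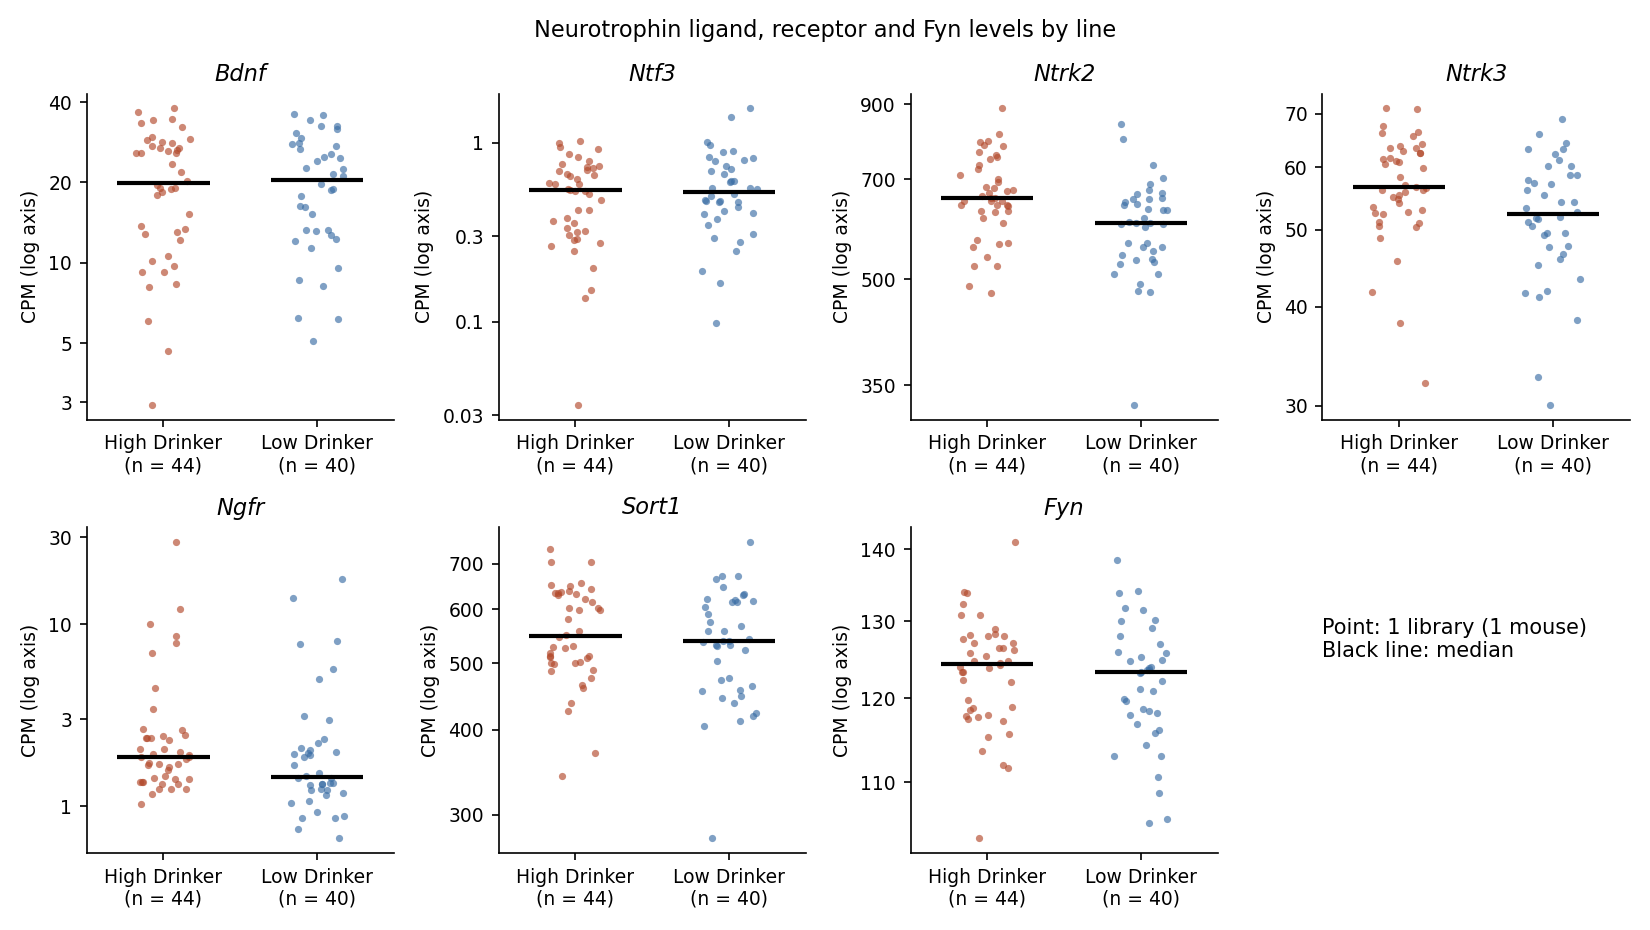
CPM of each gene on a log axis, 1 point per mouse, High Drinker (n = 44) left of Low Drinker (n = 40), black lines at the medians. The lines overlap for every gene. Ntrk2 has medians of 658 CPM in High Drinker libraries and 604 CPM in Low Drinker libraries, and Ngfr has a tail of high libraries in both lines.

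Between the lines, the BDNF receptor gene Ntrk2 was higher in High Drinker striatum by a small margin, and the other 6 genes did not pass the test. The fitted difference of Ntrk2 was 0.16 ± 0.048 (log2, SE), a 1.12-fold difference, with an adjusted p of 0.0344 in edgeR's quasi-likelihood test with terms for sheet set, sex and line. That is 1 of 7 genes, beside 3.94% of all 17071 genes tested (672 genes, of which 1.86% of those tested were higher and 2.08% lower). Over the 7 genes the median log2 fold change was 0.11 and 6 were positive, against a median of 0.001 over all genes.

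Ntrk2 ranged from 477 CPM through a median of 658 to 888 CPM in High Drinker libraries, and from 328 CPM through 604 to 843 CPM in Low Drinker libraries. The lines overlapped over most of this range, and 34 of 44 High Drinker libraries lay above the Low Drinker median. In sheet set 1 the medians were 669 CPM in High Drinker libraries and 584 CPM in Low Drinker libraries, and in sheet set 2 they were 657 CPM in High Drinker libraries and 632 CPM in Low Drinker libraries. In sheet set 3, with 3 libraries a line, High Drinker libraries held 557 to 642 CPM and Low Drinker libraries 602 to 658 CPM, so the order did not hold there. Fitted alone, sheet set 1 gave a log2 fold change of 0.22 (adjusted p = 0.148) and sheet set 2 gave 0.10 (adjusted p = 0.916) in edgeR.

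The Ntrk2 call depended on the model and on single libraries. Of 22 alternatives, 12 kept it past the threshold and 10 did not, with log2 fold changes of 0.09 to 0.22, all positive. Without Low Drinker 8, whose 328 CPM was the lowest of all libraries, edgeR gave 0.14 with an adjusted p of 0.0682, and without all 5 libraries that stood apart it gave 0.13 (adjusted p = 0.077). DESeq2 (adjusted p = 0.0248) and limma-voom (adjusted p = 0.0288) also made the call.

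Ntrk2 is known from astrocytes, mostly as the truncated receptor, as well as from neurons, and its level followed astrocyte markers. All 8 astrocyte markers were measured, and none was at 0 in any library. Between the lines 0 of 8 passed in edgeR, beside 3.94% of all genes. An unadjusted p under 0.05 was reached by 2 of them, beside 18% of all genes. Their summed level ran from 2660 CPM through a median of 3580 to 4530 CPM in High Drinker libraries, and from 1910 CPM through 3430 to 4030 CPM in Low Drinker libraries. With the astrocyte score as a covariate the Ntrk2 line difference was 0.11 (log2, edgeR adjusted p = 0.11), and with the cortical score in its place it was 0.17 (adjusted p = 0.0121). In bulk tissue, fewer cells of a type and less RNA per cell cannot be told apart.

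Over the 11 cell type lists 2 of 77 markers passed between the lines, and 9 lists had none. That is 2.6%, beside 3.94% of all genes tested, so the markers were not called more often than genes at large. Both were higher in High Drinker libraries. Cspg4, which encodes the NG2 proteoglycan of oligodendrocyte precursors, averaged 24.2 ± 4.38 CPM in High Drinker libraries and 21.4 ± 3.21 CPM in Low Drinker libraries (0.21 ± 0.049 log2, SE, edgeR adjusted p = 0.00344), and it passed in 18 of 22 alternatives. The 5 precursor markers all had positive differences, and they summed to 114 CPM through a median of 160 to 208 CPM in High Drinker libraries and 109 CPM through 147 to 197 CPM in Low Drinker libraries. Ntrk2 had r of 0.375 and rho of 0.340 with the precursor score (permutation p = 0.00051 and 0.00161, adjusted 0.00145 and 0.00427), with r of 0.381, 0.496 and -0.390 in sheet sets 1, 2 and 3, and 0.369 without High Drinker 5 and Low Drinker 27. Abcc9, a potassium channel regulator gene of mural cells, averaged 8.04 ± 1.47 CPM in High Drinker libraries and 6.89 ± 1.22 CPM in Low Drinker libraries (0.20 ± 0.057 log2, SE, edgeR adjusted p = 0.0285). Abcc9 passed in 15 of 22 alternatives, and without Low Drinker 8 it was at 0.19 (adjusted p = 0.052). Of the 7 endothelial and mural markers only 2 had positive differences, and the list median was -0.05 (log2). Their summed level had a High Drinker median of 180 CPM, against 181 CPM for the Low Drinker line. With the endothelial and mural score Ntrk2 had r of -0.394 and rho of -0.453 (permutation p = 0.00014 and 2e-05, adjusted 0.000469 and 9.06e-05), with r of -0.439, -0.287 and -0.259 in the sheet sets and -0.390 without High Drinker 42 and Low Drinker 31. The part of these cells in the Ntrk2 difference was not tested.

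**Figure D2:**
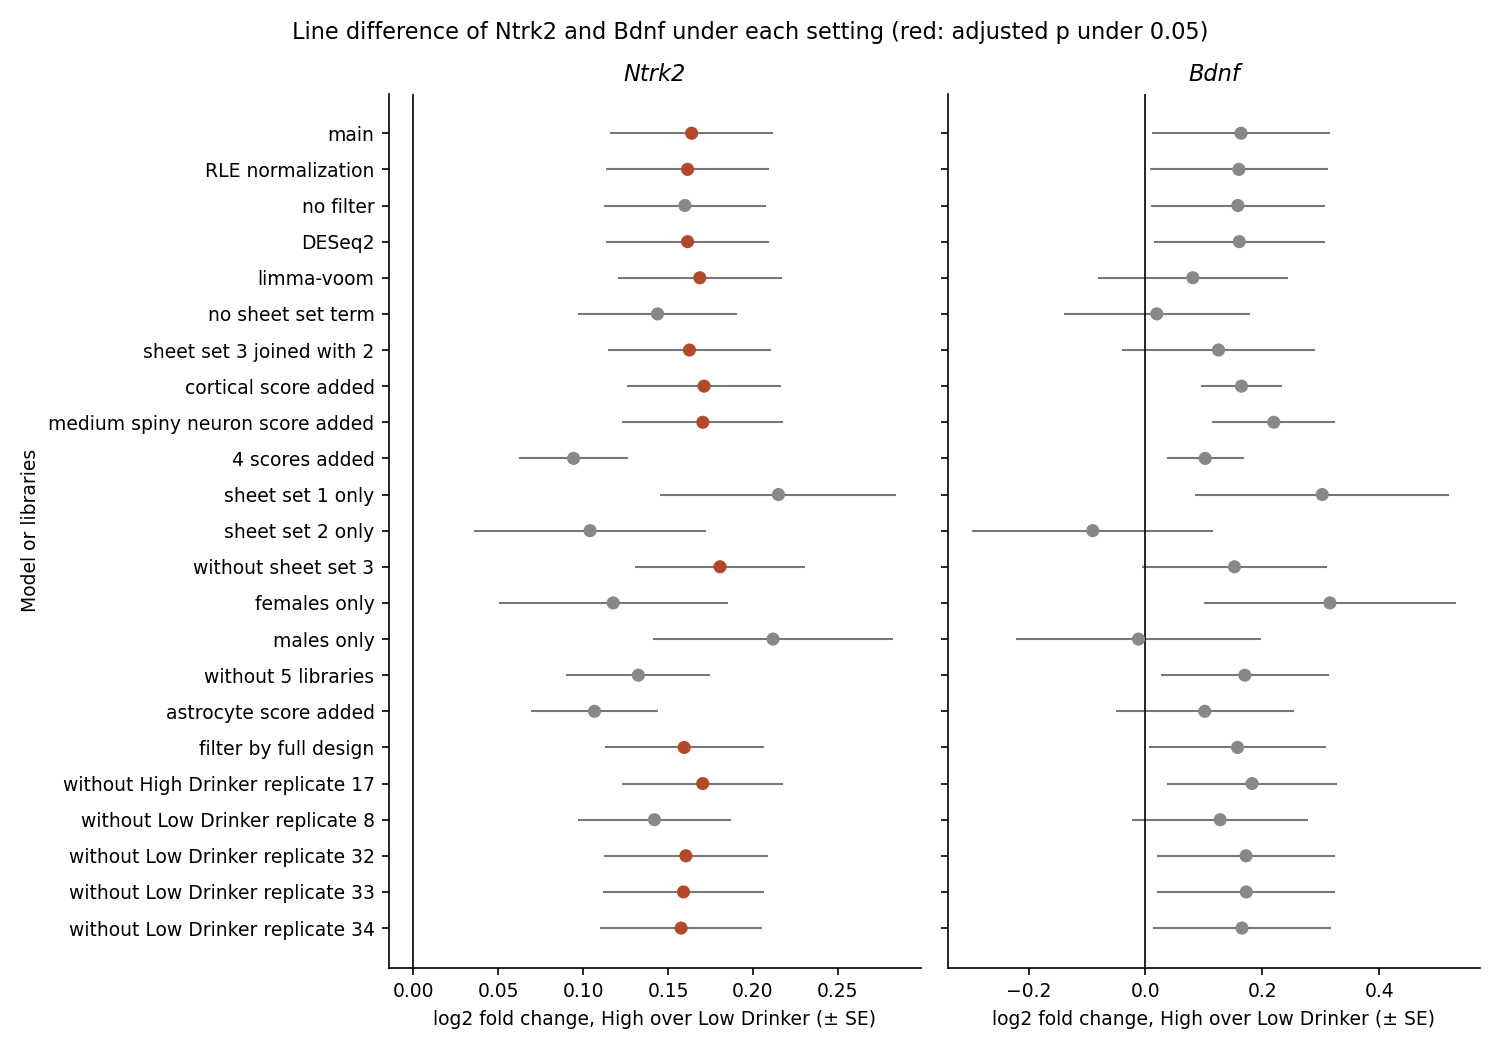
Log2 fold change of High over Low Drinker (± SE) for Ntrk2 and Bdnf under each model or set of libraries, with red points at an adjusted p under 0.05. Ntrk2 is positive under every setting shown, between 0.09 and 0.22, and past the threshold in 12 of the 22 alternatives to the main model. Bdnf is past the threshold in none and changes sign in sheet set 2 and in males.

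For the other receptors and Fyn the line difference did not pass the test. Ntrk3 ranged from 32.1 CPM through a median of 56.6 to 71.1 CPM in High Drinker libraries, and from 30.1 CPM through 52.3 to 69.0 CPM in Low Drinker libraries. The lines overlapped almost fully, although 35 of 44 High Drinker libraries lay above the Low Drinker median. The fitted difference was 0.11 ± 0.053 (log2, SE), with an unadjusted p of 0.0421 and an adjusted p of 0.256 in edgeR.

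Ngfr ranged from 1.02 CPM through a median of 1.86 to 28.3 CPM in High Drinker libraries, and from 0.666 CPM through 1.45 to 17.7 CPM in Low Drinker libraries. Both lines had most libraries near the bottom of that range and a few far above it. Its difference was 0.42 ± 0.24 (log2, SE; edgeR adjusted p = 0.358), with a 95% interval of -0.05 to 0.89, and it turned to -0.09 in sheet set 1 alone. It was 1.18 in sheet set 2 alone and 0.15 in limma-voom. With scores added it was 0.21 (cortical), 0.22 (medium spiny neuron), 0.24 (astrocyte) and 0.07 (4 scores), so its size varied between settings. In sheet set 2 High Drinker 40 held 28.3 CPM, and the next High Drinker library there, High Drinker 35, held 2.62 CPM. High Drinker libraries of that set had a mean of 4.28 CPM and a median of 1.98 CPM, against a Low Drinker mean of 1.52 CPM. No line fit left out High Drinker 40, so its part in the 1.18 was not tested.

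Sort1 ranged from 342 CPM through a median of 548 to 735 CPM in High Drinker libraries, and from 277 CPM through 539 to 753 CPM in Low Drinker libraries. The lines overlapped in full, and the difference was 0.08 ± 0.055 (log2, SE; edgeR adjusted p = 0.463), with a 95% interval of -0.03 to 0.19. Fyn ranged from 104 CPM through a median of 124 to 141 CPM in High Drinker libraries, and from 105 CPM through 123 to 139 CPM in Low Drinker libraries. The Fyn difference was 0.03 ± 0.020 (log2, SE; edgeR adjusted p = 0.533), with a 95% interval of -0.01 to 0.07, the narrowest of the 7.

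For neither ligand did the line difference pass the test. Bdnf ranged from 2.93 CPM through a median of 19.9 to 37.9 CPM in High Drinker libraries, and from 5.07 CPM through 20.4 to 36.2 CPM in Low Drinker libraries. The lines overlapped in full, with 21 of 44 High Drinker libraries above the Low Drinker median. The fitted difference was 0.16 ± 0.15 (log2, SE; edgeR adjusted p = 0.629), with a 95% interval of -0.13 to 0.46. The estimate was of the size of that for Ntrk2, with an SE of 0.152 in place of 0.0481.

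Ntf3 ranged from 0.0343 CPM through a median of 0.542 to 1.01 CPM in High Drinker libraries, and from 0.0981 CPM through 0.532 to 1.55 CPM in Low Drinker libraries. The lowest library, High Drinker 4, held 1 count. The fitted difference was -0.13 ± 0.17 (log2, SE; edgeR adjusted p = 0.747).

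To ask whether Bdnf followed cortical content, a cortical score was built from 8 markers of cortical glutamatergic neurons, as the mean of each marker's centred log2 CPM. These markers include Slc17a7, Tbr1, Neurod6, Neurod2, Emx1, Slc30a3 and Fezf2, none of the 8 is among the genes described, and none was at 0 in any library. Slc17a7, the vesicular glutamate transporter of cortical neurons, ranged from 94.4 to 2510 CPM over the libraries, and the cortical transcription factor gene Tbr1 from 11.5 to 216 CPM. The score ran from -3.07 through a median of 0.10 to 1.20 in High Drinker libraries, and from -1.71 through 0.24 to 1.30 in Low Drinker libraries, without separate clusters. The summed markers ran from 134 CPM through 1610 to 2730 CPM in High Drinker libraries, and from 393 CPM through 1680 to 3280 CPM in Low Drinker libraries, and 0 of 8 markers passed between the lines in edgeR.

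Bdnf rose with cortical content over the whole range of the score. Pearson's r between log2 CPM of Bdnf and the score was 0.925 and Spearman's rho was 0.883 over 84 libraries (permutation p = 1e-05 for each, the smallest that 100000 resamples can give, and 4.81e-05 after Benjamini-Hochberg adjustment over 77 relations of the 7 genes with 11 cell type scores). Without the libraries farthest from the median score, High Drinker 17 and High Drinker 4, r was 0.907, so the relation did not rest on them. It held in sheet sets 1 and 2, with r of 0.928 and 0.888, and in each line, with r of 0.940 for High Drinker libraries and 0.918 for Low Drinker ones. In sheet set 3 r was 0.674, which is imprecise with 6 libraries. With single markers r was between 0.762 for Fezf2 and 0.940 for Slc17a7.

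Fitted across all genes, Bdnf changed by 0.81 ± 0.046 log2 units (SE) for each log2 unit of the score, a 1.75-fold change (edgeR adjusted p = 1.11e-27). Its slope ranked 189th by p among 17071 genes, and 1.24% of genes had a more positive slope. Without the 5 libraries that stood apart it was 0.80 and r was 0.906, and across all alternatives run the slope stayed between 0.71 in Low Drinker libraries alone and 0.90 with Tbr1 in place of the score. With the medium spiny neuron score in the same model it was 0.79 (adjusted p = 1.17e-14). The slope was 0.88 in High Drinker and 0.71 in Low Drinker libraries, and the difference between them was 0.15 ± 0.080 (log2, edgeR adjusted p = 0.521). With the cortical score added to the line model, the High Drinker over Low Drinker difference of Bdnf was 0.16 with an SE of 0.069 (adjusted p = 0.134).

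**Figure D3:**
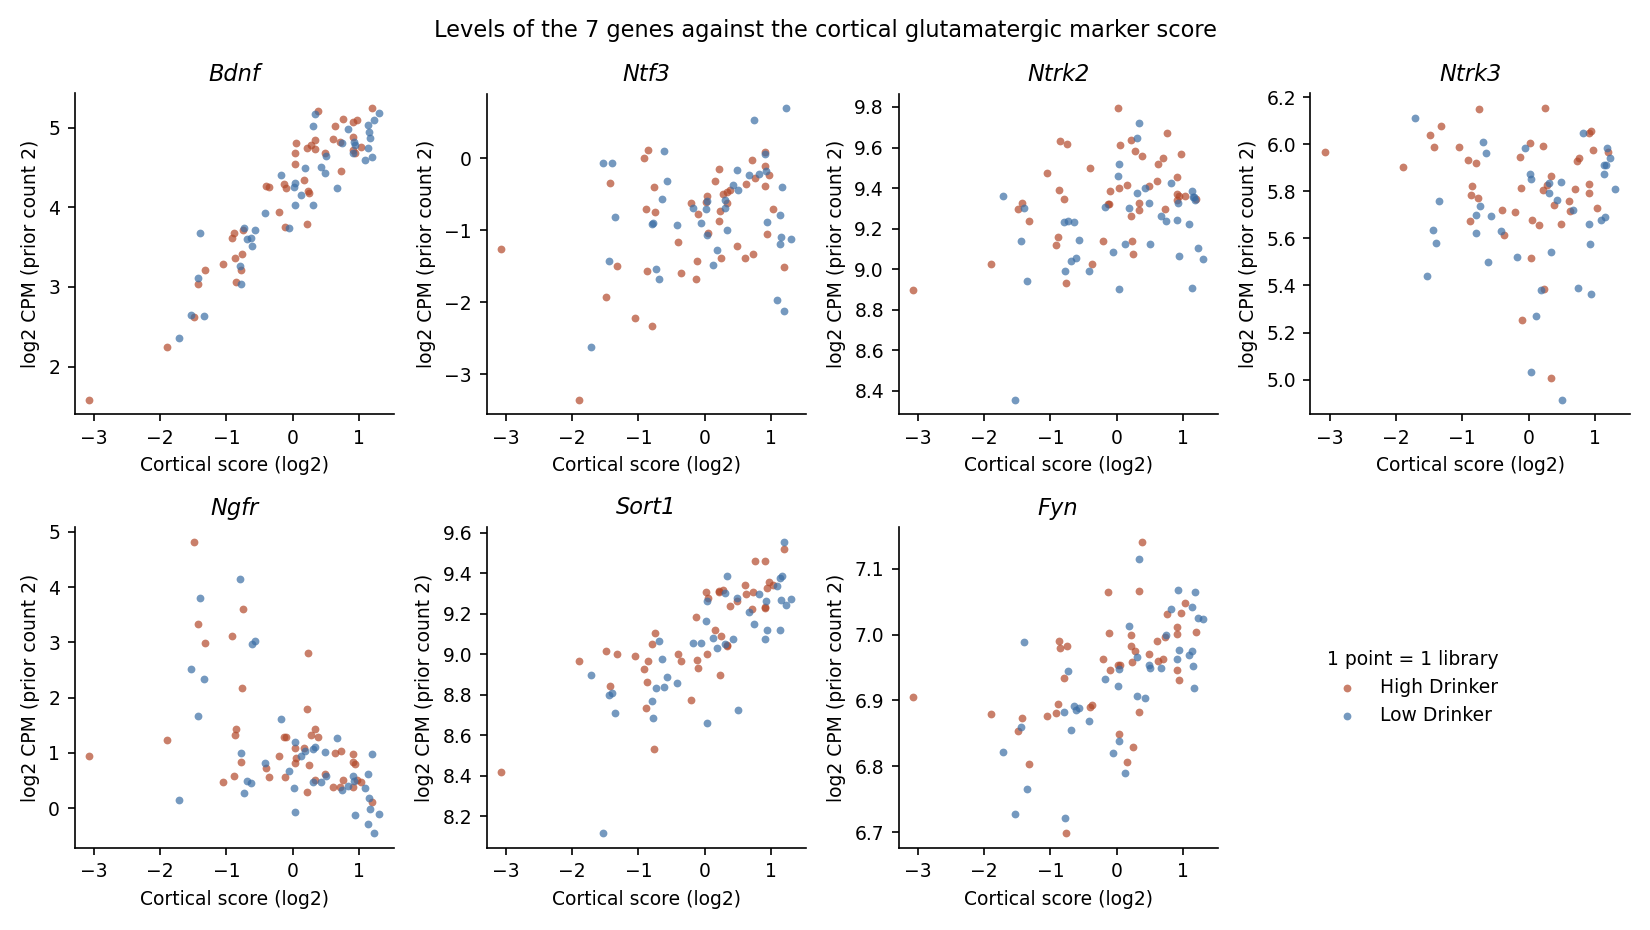
Log2 CPM (prior count 2) of each gene against the cortical score (log2), 1 point per library, High Drinker in red and Low Drinker in blue. Bdnf lies along a line (r = 0.925), Sort1 and Fyn rise with more scatter (r = 0.755 and 0.567), Ngfr falls (r = -0.547) and Ntrk3 stays near level (r = -0.087). The vertical scales differ between panels.

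The score moved with 6 of the 7 genes, beside 61.3% of all genes tested (28.7% positive and 32.5% negative), so a slope past the threshold is the common case in these libraries. Sort1 rose by 0.22 ± 0.022 log2 units per unit of score (edgeR adjusted p = 6.6e-15), Fyn by 0.06 ± 0.010 (adjusted p = 1.17e-06) and Ntrk2 by 0.09 ± 0.028 (adjusted p = 0.00488). Ntf3 rose by 0.28 ± 0.10 (adjusted p = 0.0134), and its r of 0.317 became 0.241 without High Drinker 17 and High Drinker 4. Ngfr was the one gene that fell, by 0.82 ± 0.12 (adjusted p = 7.55e-09), with slopes of -0.44 in limma-voom and -1.24 in sheet set 2 alone. Ntrk3 had a slope of 0.008 ± 0.031 (adjusted p = 0.836).

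These slopes differed in how far they held within sheet sets. For Sort1 r was 0.760, 0.655 and 0.793 in sheet sets 1, 2 and 3, and for Fyn it was 0.595, 0.429 and 0.557. For Ntrk2 r was 0.493, -0.128 and -0.439, so the pooled r of 0.317 held in sheet set 1 and turned in the other sets. For Ngfr r was -0.367, -0.816 and 0.0687, so it did not hold in the 6 libraries of sheet set 3. Fitted in sheet set 2 alone, 3 of 7 genes passed in place of 6.

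Medium spiny neurons are the principal striatal cells, and 5 of 7 genes moved with their score, beside 58.5% of all genes (30.6% positive and 28% negative). Bdnf fell by 0.46 log2 units per unit of this score (edgeR adjusted p = 2.94e-13), Ntf3 by 0.21 (adjusted p = 0.0139), Sort1 by 0.13 (adjusted p = 2.11e-08) and Fyn by 0.04 (adjusted p = 3.21e-06). Ngfr rose by 0.51 (adjusted p = 2.01e-05). For Bdnf r with this score was -0.756 and rho -0.879 (permutation p = 1e-05 each, adjusted 4.81e-05), and r was -0.769 without Low Drinker 32 and 33. The sum of the 12 medium spiny neuron markers ran from 861 CPM through 5410 to 15900 CPM in High Drinker libraries, and from 546 CPM through 4720 to 13200 CPM in Low Drinker libraries. None of the 12 markers was at 0 in any library, and 0 of 12 passed between the lines in edgeR. Counts above 0 do not show how much of a library is striatum. Low Drinker 32 and 33 had the lowest medium spiny neuron scores, -3.65 and -3.45, with cortical scores of 1.23 and 1.30.

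Of the 7 genes, Ntrk2 had the smallest p on the astrocyte score. It rose by 1.01 ± 0.13 log2 units per unit of the astrocyte score (edgeR adjusted p = 1.9e-08) and ranked 12th by p among 17071 genes. Its r was 0.685 and rho 0.591 (permutation p = 1e-05 each, adjusted 4.81e-05), with r of 0.741, 0.611 and 0.451 in sheet sets 1, 2 and 3, and 0.644 without Low Drinker 8 and 33. In all 4 of 7 genes passed, beside 35.4% of all genes (18.2% positive and 17.3% negative): Ntrk2, Sort1 with a slope of 0.63 (adjusted p = 0.00433), Fyn with 0.24 (adjusted p = 0.00254) and Ngfr with 2.06 (adjusted p = 0.0472). Bdnf had a slope of 1.10 that did not pass (adjusted p = 0.0859). Without the 5 libraries that stood apart the Ntrk2 slope was 0.88 (adjusted p = 4.06e-06). In sheet set 2 alone 0 of 7 passed, with Ntrk2 at 0.73 and an adjusted p of 0.0824 in edgeR.

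Ngfr is known in adult forebrain from basal forebrain cholinergic neurons, which express p75NTR, and it followed cholinergic markers. It rose by 0.57 ± 0.063 log2 units per unit of the cholinergic score (edgeR adjusted p = 7.66e-13), with slopes of 0.50 in sheet set 1, 0.58 in sheet set 2 and 0.60 without the 5 libraries that stood apart. Its r was 0.643 and rho 0.591 (permutation p = 1e-05 each, adjusted 4.81e-05), and r was 0.484, 0.782 and 0.766 in the sheet sets. Altogether 4 of 7 genes passed on this score, beside 57.6% of all genes (30.2% positive and 27.4% negative), with Bdnf, Sort1 and Fyn falling. Low Drinker 32 and 33, which had the lowest medium spiny neuron scores, also had the lowest cholinergic scores, -3.52 and -3.93. Ngfr had r of 0.437 with the medium spiny neuron score. No model held both scores, so their relations with Ngfr were not separated. Ngfr also followed the score of ependyma, choroid plexus and meninges, with r of 0.529 and rho of 0.452 (permutation p = 1e-05 and 4e-05, adjusted 4.81e-05 and 0.000162), and r was 0.517 without Low Drinker 7 and High Drinker 9. Within sheet sets 1, 2 and 3 the r with this score was 0.517, 0.114 and 0.652, above the cholinergic r in sheet set 1, and it was 0.326 in High Drinker and 0.714 in Low Drinker libraries, where the cholinergic r was 0.649 and 0.630. The 6 markers of that score summed to 9.48 CPM through 20.5 to 133 CPM in High Drinker libraries and 6.79 CPM through 18.8 to 210 CPM in Low Drinker libraries, with Ttr at 0 in 21 libraries, Folr1 in 4 and Ccdc153 in 3. The part of either cell source in the Ngfr level was not tested. The sum of the 5 cholinergic markers ran from 3.58 CPM through 36.3 to 154 CPM in High Drinker libraries, and from 1.48 CPM through 32.4 to 82.9 CPM in Low Drinker libraries. These markers are Chat, Slc18a3, Slc5a7, Lhx8 and Gbx1. Lhx8 was at 0 in 2 libraries, the other markers at 0 in none, and 0 of 5 passed between the lines in edgeR.

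The 6 libraries with the highest Ngfr, picked for that level, are given as a description. High Drinker 40 held 28.3 CPM of Ngfr with a cholinergic score of 2.71 and a cortical score of -1.49, and its Bdnf was 6.07 CPM. Low Drinker 3 and Low Drinker 2 followed with 17.7 and 14 CPM, then High Drinker 15, 2 and 3 with 12.1, 10.1 and 8.59 CPM. All 6 had cholinergic scores of 1.33 or more and cortical scores below 0. The converse did not hold throughout, since 10 other libraries had cholinergic scores as high with Ngfr between 1.15 CPM in Low Drinker 9 and 8.06 CPM in Low Drinker 7, and 2 of the 10 lay below the median of 1.72 CPM over all libraries. Of the 6, 4 came from sheet set 3, where the median Ngfr was 9.32 CPM, against 1.71 in sheet set 1 and 1.55 in sheet set 2. The same sheet set had the lowest Bdnf, with a median of 10.9 CPM, against 18.2 and 26.1 CPM, and the lowest cortical score, with a median of -1.16.

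Fyn is needed in oligodendrocytes for myelination in mice, and its slope on oligodendrocyte markers did not pass. The slope was 0.007 ± 0.026 (edgeR adjusted p = 0.933), with a 95% interval of -0.05 to 0.06. None of the 7 genes passed on this score in edgeR or limma-voom, beside 6.16% of all genes, and 0 had an unadjusted p under 0.05 in edgeR. The largest negative slope was that of Bdnf, at -0.36 (adjusted p = 0.3). By correlation Bdnf had r of -0.264 and rho of -0.224 with this score (permutation p = 0.0159 and 0.0405, adjusted 0.034 and 0.076). Its r was -0.409, 0.0286 and 0.64 in sheet sets 1, 2 and 3, and -0.208 without Low Drinker 32 and High Drinker 5.

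**Figure D4:**
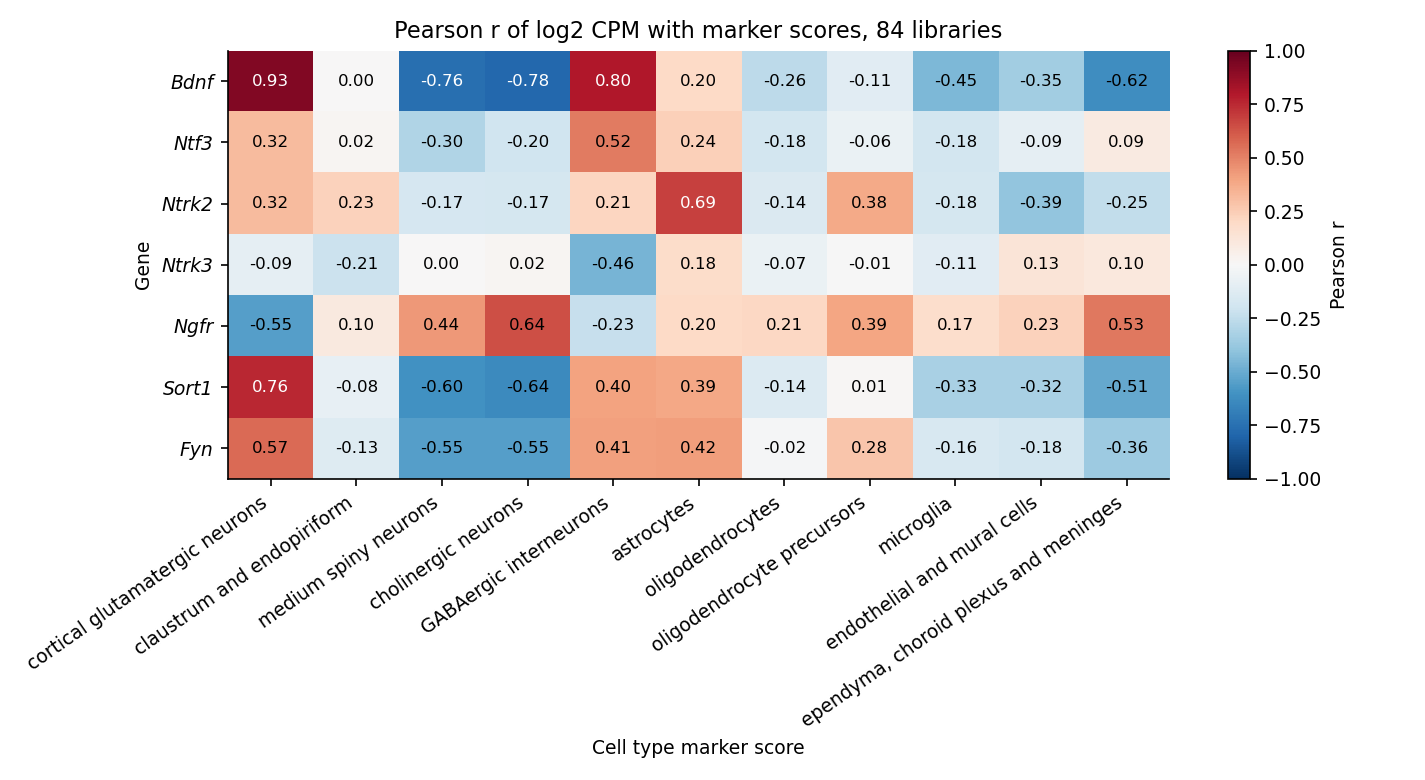
Pearson r between log2 CPM of each gene (rows) and 11 cell type marker scores (columns) over 84 libraries. Bdnf is most positive with the cortical score (0.925) and the GABAergic interneuron score (0.804), Ntrk2 with astrocytes (0.685) and Ngfr with cholinergic neurons (0.643).

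With the GABAergic interneuron score, Ntf3 and its receptor gene Ntrk3 ran in opposite directions. No slope on this score was fitted across all genes, so the share of all genes that move with it is not known. Ntf3 had r of 0.518 and rho of 0.424 with this score (permutation p = 2e-05 and 7e-05, adjusted 8.56e-05 and 0.000257 over 77 relations). Ntrk3 had r of -0.463 and rho of -0.431 (permutation p = 6e-05 each, adjusted 0.000243 and 0.000231). Both kept their sign in every sheet set, with r of 0.571, 0.524 and 0.518 for Ntf3 and of -0.380, -0.494 and -0.832 for Ntrk3. Without High Drinker 17 and High Drinker 4, r was 0.456 for Ntf3 and -0.481 for Ntrk3. Bdnf reached 0.804 with the same score, and its r with the claustrum and endopiriform score was 0.0003. High Drinker 17 and High Drinker 4, which had the lowest cortical scores, also had the lowest GABAergic interneuron scores, -1.27 and -1.08. No model held both of these scores, so relations with interneuron markers were not separated from cortical content.

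The genes whose levels ran most like each of the 7 were taken from residuals of log2 CPM after sheet set, sex and line, over 84 libraries, as a description. Closest to Bdnf among 11268 other genes were Fam81a (r = 0.960), the synaptic C1q-family gene C1ql3 (r = 0.949) and the G-protein-gated potassium channel gene Kcnj3 (r = 0.947). Closest to Ntrk2 were the xylosyltransferase gene Xylt1 (r = 0.897), the receptor phosphatase gene Ptprz1 (r = 0.883) and Rapgef5 (r = 0.877). Closest to Ngfr were the angiotensinogen gene Agt (r = 0.822), Igsf1 (r = 0.815) and the matrix protein gene Sparc (r = 0.764). Closest to Sort1 were the vitamin C transporter gene Slc23a2 (r = 0.946), Tecpr2 (r = 0.938) and the kinesin gene Kif3c (r = 0.933).

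For the genes with weaker likeness, Ntf3 ran closest to the nociceptin precursor gene Pnoc (r = 0.726), Hopx (r = 0.620) and Zic2 (r = 0.610). Ntrk3 ran closest to Sorcs1 (r = 0.779), a relative of sortilin, followed by Zfp507 (r = 0.747) and Tsc1 (r = 0.742). Fyn ran closest to Gpr135 (r = 0.740), the translation factor gene Eif4g1 (r = 0.732) and Nell2 (r = 0.726). Among the 7 genes themselves Bdnf and Sort1 were most alike (r = 0.732), then Sort1 and Ntrk2 (r = 0.677), Bdnf and Fyn (r = 0.624) and Sort1 and Fyn (r = 0.622). Bdnf had an r of 0.490 with its receptor gene Ntrk2, and Ntf3 had an r of -0.202 with its receptor gene Ntrk3. Bdnf and Ngfr gave -0.408. These values share library depth and tissue composition.

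No sex difference passed the threshold for these genes. In edgeR 0 of 7 passed, beside 0.0996% of all genes, and 1 had an unadjusted p under 0.05. That gene was Ngfr, whose male over female log2 fold change was -0.57 ± 0.26 (unadjusted p = 0.0285, adjusted p = 1), with medians of 1.42 CPM in males and 1.93 CPM in females. No interaction of line with sex passed for any of the 7 (0 of 7, beside 0% of all genes, with 0 at an unadjusted p under 0.05 in edgeR). For Ntrk2 the interaction was 0.09 ± 0.094 (adjusted p = 0.832), with medians of 672 CPM in High Drinker libraries of males and 610 CPM in Low Drinker libraries of males, while High Drinker females had 642 CPM and Low Drinker females 603 CPM. No line difference in the slope on the cortical score passed either (0 of 7, beside 0% of all genes, with 0 at an unadjusted p under 0.05 in edgeR). For the spread between animals no line difference passed (0 of 7 in limma, beside 0.0117% of all genes, with 0 at an unadjusted p under 0.05).

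In the rest of the pathway 4 of 109 tested genes in 7 lists passed between the lines, a share of 3.67% beside 3.94% of all genes, so the lists were near the background. An unadjusted p under 0.05 was reached by 18 of the 109 (16.5%), beside 18% of all 17071 genes. Among 10 tested of 12 further ligands and proneurotrophin processing genes, such as the convertase gene Furin, 0 passed in edgeR and the median log2 fold change was 0.03, with 1 of 10, Plat, at an unadjusted p under 0.05 (0.0212), beside the 18% of all genes. Plat, the tissue plasminogen activator that starts the cutting of proBDNF by plasmin, averaged 26.9 ± 2.39 CPM in High Drinker libraries and 26.1 ± 3.12 CPM in Low Drinker libraries (SD; adjusted p = 0.185). Among 11 other receptors, co-receptors and sorting genes, 0 were higher and 1 was lower, with a median of 0.04. It was Bex3, an X-linked gene whose protein binds p75NTR, with 163 ± 22 CPM in High Drinker libraries and 182 ± 33 CPM in Low Drinker libraries (log2 fold change -0.18 ± 0.049, edgeR adjusted p = 0.0201). Without Low Drinker 8 the Bex3 difference was -0.15 (adjusted p = 0.0561), and 14 of 22 alternatives kept it past the threshold.

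The sortilin relative Sorcs3 lay on the other side, with 64.8 ± 11 CPM in High Drinker libraries and 58.2 ± 10.8 CPM in Low Drinker libraries (0.17 ± 0.058, edgeR adjusted p = 0.0779). Of 34 Trk adaptors and kinases, 0 were higher and 1 was lower, with a median of 0.01. The lower gene was Map2k2, which encodes the ERK-activating kinase MEK2, at 90.4 ± 8.69 CPM in High Drinker libraries and 99.25 ± 12.6 CPM in Low Drinker libraries (-0.13 ± 0.036, edgeR adjusted p = 0.028). Its more abundant relative Map2k1, which encodes MEK1, did not pass. Map2k1 averaged 333 ± 34 CPM in High Drinker libraries and 328 ± 40.1 CPM in Low Drinker libraries (0.003 ± 0.035, edgeR adjusted p = 0.974). Map2k2 kept the call in 14 of 22 alternatives, and it was at -0.11 without Low Drinker 8 (adjusted p = 0.07).

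Genes that BDNF is known to induce gave 0 calls among 9 tested in edgeR, with 0 at an unadjusted p under 0.05 and a median of -0.05, beside the same background of 3.94% called and 18% at an unadjusted p under 0.05. The immediate early gene Arc averaged 176 ± 110 CPM in High Drinker libraries and 236 ± 145 CPM in Low Drinker libraries (-0.17 ± 0.17, edgeR adjusted p = 0.649). Among 11 regulators of Bdnf transcription 0 were higher and 1 was lower, with a median of 0.05. This was Usf1, an E-box binding factor, with 50.7 ± 4.02 CPM in High Drinker libraries and 55.2 ± 6.59 CPM in Low Drinker libraries (-0.12 ± 0.032, edgeR adjusted p = 0.0169). Usf1 passed in 16 of 22 alternatives and was at -0.10 (adjusted p = 0.0794) without the 5 libraries that stood apart. The E-box spelling CACGTG searched above was in none of the 7 Bdnf windows. Other E-box spellings were not searched, and binding of the Usf1 protein was not tested.

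Of 18 tested among 19 Src family kinases and Fyn regulators and substrates, 1 was higher and 0 were lower, with a median of 0.04. The higher gene was Grin2b, which encodes an NMDA receptor subunit that Fyn phosphorylates, with 591 ± 125 CPM in High Drinker libraries and 496 ± 130 CPM in Low Drinker libraries (0.29 ± 0.078, edgeR adjusted p = 0.0168). Grin2a, which encodes another such subunit, averaged 18.9 ± 9.04 CPM in High Drinker libraries and 14.8 ± 6.9 CPM in Low Drinker libraries. Its difference was larger but did not pass (0.42 ± 0.16, edgeR adjusted p = 0.133). Grin2b passed in 18 of 22 alternatives, those without the 5 libraries included, and did not pass in fits of sheet set 1, sheet set 2, females or males alone. Among 16 tested of 17 other neurotrophic factors and receptors, such as Gdnf, 0 passed in edgeR and 1 had an unadjusted p under 0.05, beside 3.94% and 18% of all genes, and the median was 0.03.

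**Figure D5:**
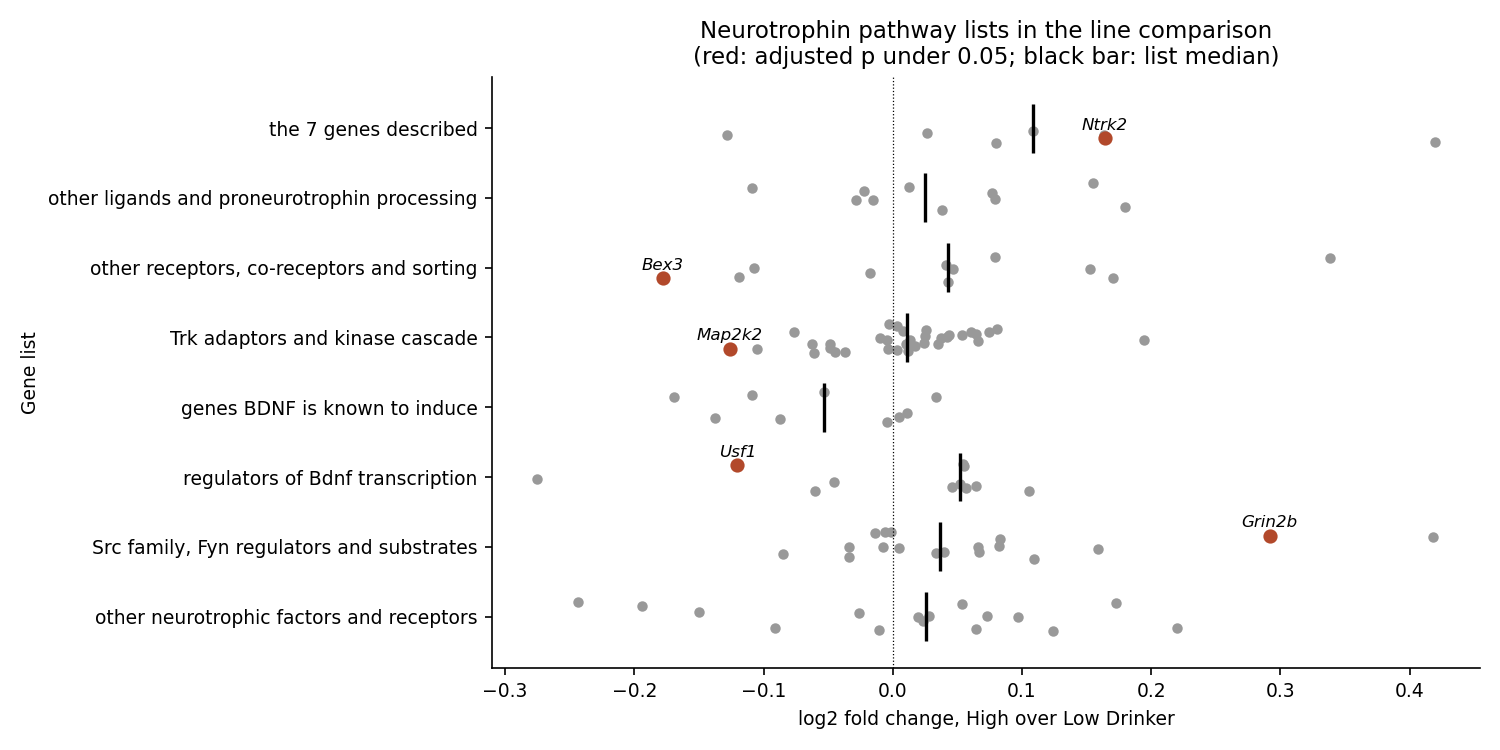
Log2 fold change of High over Low Drinker for every tested gene of the 7 genes described (top row) and of 7 pathway lists, with red points at an adjusted p under 0.05 and black bars at list medians. The red points are Ntrk2 (0.16) and Grin2b (0.29) to the right of 0, and Bex3 (-0.18), Map2k2 (-0.13) and Usf1 (-0.12) to the left.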

How the data were processed

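RNA was measured in ventrolateral striatum dissected by hand from 84 mice. Per the labels' protocols, RNA was isolated with Trizol, cDNA was amplified with an Ovation RNA-Seq kit, and TruSeq DNA libraries were sequenced on a HiSeq 2500 as single-end reads of 100 bp. The deposited values are unnormalized read counts by gene and animal, as featureCounts writes them, with summed exon lengths. Per the submitters' processing notes the tools were STAR, featureCounts (Subread), FastQC and edgeR on build mm10, with versions and strand settings not given in the sources used here. Amplified cDNA holds duplicate molecules, so counts are not independent molecules. Nothing in the kit names states that strand is kept. Rows that name no gene numbered 0, and columns of no sample 0.

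From the counts, edgeR 4.0.16 in R 4.3.3 (TMM normalization, filterByExpr by line and sex, quasi-likelihood F-test, model of sheet set, sex and line) was fitted to 17071 genes with Benjamini-Hochberg adjustment at 0.05. SE is the log2 fold change over the root of F, and intervals are normal ones on it. CPM is TMM-normalized. Scores are means of centred log2 CPM (prior count 2) of marker lists. Of the 11 scores, 5 (cortical, medium spiny neuron, astrocyte, oligodendrocyte and cholinergic) were fitted as slopes, each in its own main model. The other scores were only correlated with the described genes, without a share over all genes. For spread, limma 3.58.1 compared how far log2 CPM lay from the median of its line and sex. DESeq2 1.42.0 was an alternative. Correlations used two-sided permutation tests with 100000 resamples (scipy 1.17.1, with numpy 2.4.6 and pandas 2.3.3 in Python 3.11.15, and matplotlib 3.10.9 for plots). The tests were also run on simulated counts, drawn independently around each gene's mean with changes added in some genes. Those counts held no sheet set effects and no libraries that stood apart. That run therefore does not show how the tests behave with such features. Of 3486 library pairs 0 were identical, and the smallest chi-square per gene was 7.14.

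Named genes are the 7 members, the 3 genes most alike to each among genes of 5 CPM or more with an established symbol, and up to 3 list members past the threshold from each list. Plat, Sorcs3, Arc, Cspg4, Abcc9, Map2k1 and Grin2a were named after their values were seen. Some list genes are not reported here by name. The members and lists were chosen with earlier results of these data known, and the astrocyte covariate, the filter by full design and the single-library exclusions were added after seeing the data.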

Additional observations from a re-analysis of the deposited data

How the results depend on the processing

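Between the lines 1 of 7 genes passed, and 0 passed with no filter on low counts, no sheet set term, 4 scores added (cortical, medium spiny neuron, astrocyte and oligodendrocyte), the astrocyte score added, sheet set 1 only, sheet set 2 only, females only, males only, or without 5 libraries. Leaving out each of those 5 libraries in turn gave 0 to 1, with 0 without Low Drinker 8. Over all genes 672 passed, against 1104 with the cortical score added, 1009 with the medium spiny neuron score, 79 in each of sheet sets 1 and 2, 35 in females, 107 in males and 425 without the 5 libraries. In sheet set 2 alone the number of the 7 genes with a slope was 3 of 6 for the cortical score, 3 of 5 for the medium spiny neuron score and 0 of 4 for the astrocyte score, which gave 1 in High Drinker and 1 in Low Drinker libraries alone. Over all genes 10456 had a cortical slope, against 6131 in sheet set 2 and 5510 with the medium spiny neuron score added. For the medium spiny neuron score the counts were 9992, against 6007 in sheet set 2, and for astrocytes 6051, against 73 in sheet set 2, 2077 in High Drinker and 988 in Low Drinker libraries. Fewer libraries enter the fits by sheet set, sex and line. For the other settings the cause was not tested.

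Among signs that turned, the line difference was -0.086 for Ngfr in sheet set 1, -0.090 for Bdnf and -0.0059 for Fyn in sheet set 2, and -0.012 for Bdnf in males. The cortical slope of Ntrk3, near 0 throughout, was -0.015 in sheet set 1, -0.030 in High Drinker libraries, -0.0084 without the 5 libraries, -0.013 on Slc17a7 alone, -0.0040 on Tbr1 alone and -0.052 with the medium spiny neuron score added. That of Ntrk2 was -0.027 in sheet set 2. On the medium spiny neuron score Ntrk3 gave 0.0073 in sheet set 1 and 0.013 in High Drinker libraries, and Ntrk2 0.036 in sheet set 2. On the astrocyte score Bdnf gave -0.48 in sheet set 2 and Ntrk3 -0.038 in High Drinker libraries. On the oligodendrocyte score Ntrk3 gave 0.011 and Fyn -0.027 in sheet set 1, Bdnf gave 0.022, Ntrk2 0.028, Ngfr -0.34 and Sort1 0.038 in sheet set 2, and Ntrk3 gave 0.0098 and Ngfr -0.40 in High Drinker libraries. On the cholinergic score Ntrk3 gave 0.0017 in sheet set 1 and 0.0081 in High Drinker libraries, and Ntrk2 0.022 in sheet set 2. Without the 5 libraries the male over female difference was -0.044 for Bdnf and -0.044 for Sort1, the interaction of line with sex -0.041 for Ngfr and 0.0081 for Fyn, and the spread difference 0.055 for Ngfr. The line difference in cortical slope was 0.035 for Ngfr with no sheet set term. Of the pathway genes, the line difference was -0.017 for Plat in sheet set 2 and 0.22 for Arc in females. With the cortical score added, Sorcs3 (0.17, adjusted p = 0.0461) passed in edgeR. The cause of these turns was not tested.

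The correlation of Bdnf with the cortical score was between 0.906 and 0.925 under its 4 alternatives. No paired analysis was possible because replicate numbers follow accession order only and the labels pair no animals. Depth limits Ntf3, at 1 to 42 counts per library.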
